A study of Mus musculus with 4 samples.

Results

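Ccl1, Ccl3, Ccl4, Ccl5 and Xcl1, 5 chemokine genes that CD8 T cells can transcribe, were followed by name among the 12763 genes of a single-cell RNA table of murine CD8 T cells. All 5 were present. They were described in the 4 libraries of the series and, within the tumour libraries, in cells with and without a value of Tnfrsf9, which encodes the costimulatory receptor CD137 (4-1BB), and of Havcr2, which encodes the inhibitory receptor TIM-3. Lethally irradiated C57BL/6 mice (8 Gy) had been given marrow of Cd4cre Cd137fl/fl ROSA26tomato and Cd137fl/fl ROSA26tomato donors together, and had then received B16K1 melanoma cells under the skin. Each recipient thus held T cells of both donors. On day 21 the CD8 T cells were taken from the spleen and the tumour, and the tomato reporter served to separate what the labels call CD137 minus and CD137 plus. The labels disagree on which tomato fraction is which, so groups follow their CD137 status. In the first donor, Cre driven by the Cd4 promoter deletes loxP-flanked Cd137 from T cells. The other donor carries the same floxed gene and reporter without Cre, so both groups share these alleles, and loss of CD137 cannot be told apart from Cre or from the donor. Cells of 7 mice were pooled for each fraction and the table names no mouse per cell, so every group is 1 library without a replicate.

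Chemokines are small secreted proteins that attract cells bearing the matching receptor along a gradient. CCL3 (MIP-1 alpha), CCL4 (MIP-1 beta) and CCL5 (RANTES) are inflammatory CC chemokines that attract activated T cells and myeloid cells. Effector and memory CD8 T cells release them together with granzymes and interferon gamma. CCL1 (TCA-3) is a ligand of CCR8, a receptor found on subsets of activated and regulatory T cells. XCL1 (lymphotactin) binds XCR1 on cross-presenting dendritic cells. T cell receptor signalling induces Ccl1, Ccl3, Ccl4 and Xcl1 rapidly, whereas Ccl5 is a late gene of T cell activation that memory cells keep transcribing.

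In the GENCODE annotation of GRCm38 (mm10), 4 of the genes lie on chromosome 11 within the CC chemokine cluster and Xcl1 lies on chromosome 1. Ccl3 (chr11:83647844-83649355, minus strand) and Ccl4 (chr11:83662584-83664683, plus strand) are neighbours, with 13228 bases and no annotated gene between them. Ccl5 (chr11:83525778-83530518, minus strand) lies 117325 bases from Ccl3. Ccl1 is annotated at chr11:82176657-82305690 on the minus strand, with 3 transcripts of which the most compact spans 3154 bases. Xcl1 (chr1:164931644-164935527, minus strand) overlaps the non-coding gene Gm20743 on the plus strand, which held 7 counts in tumour CD137 plus and none in the other libraries. Transcripts of the other 4 matched no other gene at 90% identity. RefSeq promoter windows of GRCm38.p6 were at hand for 3 of the 5 genes, and the 250 bases before the start site of each, all on the minus strand, are shown 5′ to 3′ because the results turn on these genes, Ccl1 and Xcl1 as a pair and Ccl3 by its tie to Havcr2. Capitals mark matches, on either strand, to the NFAT core GGAAA and to the NF-kB consensus.
Ccl1 (chr11:82179813-82180062): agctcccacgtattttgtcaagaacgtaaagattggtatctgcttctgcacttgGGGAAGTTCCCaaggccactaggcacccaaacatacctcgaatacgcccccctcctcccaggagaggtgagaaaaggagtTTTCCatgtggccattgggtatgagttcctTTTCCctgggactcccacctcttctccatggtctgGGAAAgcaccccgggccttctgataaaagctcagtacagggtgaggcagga
Ccl3 (chr11:83649379-83649628): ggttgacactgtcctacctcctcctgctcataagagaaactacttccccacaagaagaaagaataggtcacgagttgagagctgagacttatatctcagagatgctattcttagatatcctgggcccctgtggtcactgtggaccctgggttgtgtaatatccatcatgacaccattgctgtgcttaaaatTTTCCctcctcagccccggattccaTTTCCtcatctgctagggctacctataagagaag
Xcl1 (chr1:164935523-164935772): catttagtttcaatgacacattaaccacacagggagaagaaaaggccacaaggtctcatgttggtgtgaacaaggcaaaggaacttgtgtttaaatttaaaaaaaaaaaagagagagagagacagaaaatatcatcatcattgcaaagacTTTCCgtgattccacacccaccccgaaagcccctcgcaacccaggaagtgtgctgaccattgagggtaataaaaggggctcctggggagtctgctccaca
The GGAAA core occurred 3 times before Ccl1, 2 times before Ccl3 and 1 time before Xcl1, and 55.6% of 32851 promoter windows of the same length held it at least once. The NF-kB consensus matched only before Ccl1, in 2 overlapping frames of a single site, and 7.25% of windows held a match. Neither the AP-1 motif TGANTCA (6.75% of windows) nor the cyclic AMP response element TGACGTCA (1.55%) was found in the 3 windows. These matches describe letters and are no evidence of binding.

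In the spleen libraries there were 2464 (CD137 minus) and 473 (CD137 plus) cells, and in the tumour libraries 1262 and 2766, with 2466601 to 10273681 corrected counts per library (the whole numbers behind the deposited logs). Over 99% of cells in each library had a value, meaning a corrected count above 0, of Cd8a or Cd8b1, and 19 cell barcodes occurred in more than 1 library over all pairs. Tnfrsf9, the targeted gene, stood at 2.34 CPM (counts scaled to a library total of 1000000) in spleen CD137 minus, 16.2 in spleen CD137 plus, 57.5 in tumour CD137 minus and 421 in tumour CD137 plus. It was lower in the minus fraction of both tissues, but 15.8% of tumour CD137 minus cells still had a value. The sources used here do not say which exons are floxed, so a 5′ read may fall outside the deleted part. Havcr2 stood at 0, 4.46, 32.0 and 48.0 CPM in the same order.

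Among the inflammatory CC chemokines, Ccl3 and Ccl4 were low in the spleen and several times higher in the tumour, and in both tissues the CD137 minus library was the lower. Ccl3 stood at 3.46 CPM in spleen CD137 minus, 31.2 in spleen CD137 plus, 149 in tumour CD137 minus and 392 in tumour CD137 plus. Cells with a value made up 0.852% (exact Clopper-Pearson 95% interval 0.528 to 1.30), 4.02% (2.44 to 6.20), 14.0% (12.2 to 16.1) and 24.0% (22.5 to 25.7) of these libraries. No 2 of the 4 intervals overlap. Intervals here cover counting error only. Ccl4 followed the same order, with 19.9, 133, 313 and 733 CPM and shares of 4.02%, 14.6%, 24.9% and 34.2%. In the cells that had Ccl4, the mean number of counts was 1.98, 4.75, 6.03 and 7.96, so both the share and the amount per cell were larger in the plus libraries. CPM values are compared within a gene only, since they are not scaled to transcript length.

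Ccl5 had the largest share of cells with a value of the 5 members in each of the 4 libraries. Its level was 2518 CPM in spleen CD137 minus, 7101 in spleen CD137 plus, 4235 in tumour CD137 minus and 6847 in tumour CD137 plus. The shares of cells with a value were 48.1%, 69.1%, 76.9% and 85.7%. In the plus fraction the spleen and tumour levels lay close together although the share was larger in the tumour. The mean was 53.6 counts in positive spleen cells and 29.7 in positive tumour cells. These means are not at equal depth, since median totals per cell were 5344 corrected counts in spleen CD137 plus and 3701.5 in tumour CD137 plus. Within each tissue the CD137 minus library was the lower in both share and level. No share in cells that lack Ccl5 is given here, so a cell with a value is not read as a cell that transcribes the gene.

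Xcl1, the XCR1 ligand, differed between the tissues and little between the fractions. It stood at 47.5 CPM in spleen CD137 minus, 39.3 in spleen CD137 plus, 503 in tumour CD137 minus and 658 in tumour CD137 plus. Shares of cells with a value were 8.12% (7.07 to 9.27) and 11.4% (8.69 to 14.6) in the spleen, whose intervals overlap, and 37.7% (35.0 to 40.5) and 34.6% (32.9 to 36.4) in the tumour, whose intervals overlap too. With every cell thinned to 2900 corrected counts, the tumour shares became 30.9% and 32.0%, so the order of the fractions was the opposite. Ccl1, the CCR8 ligand, was listed at 0 in both spleen libraries, where no gene above 0 was found in fewer than 4 (minus) or 5 (plus) cells. In the tumour its share was 5.15% (4.00 to 6.52) for CD137 minus and 7.48% (6.53 to 8.53) for CD137 plus, at 67.1 and 95.3 CPM.

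**Figure D1:**
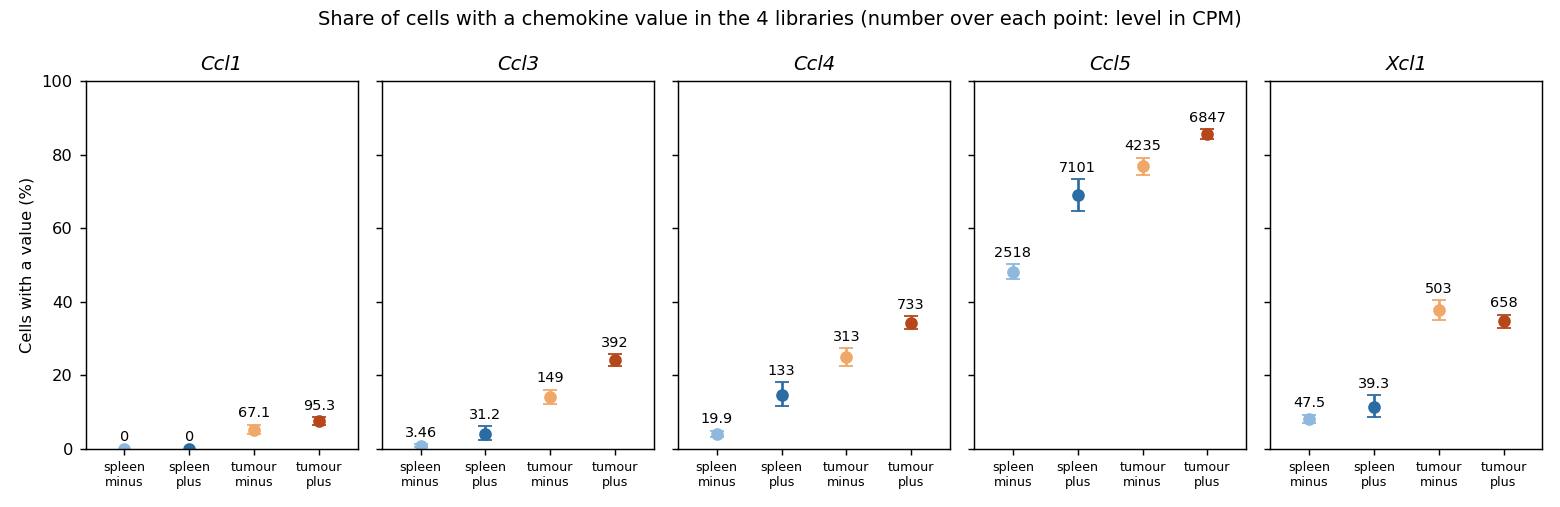
Share of cells with a value of each chemokine gene (vertical axis, %) in the 4 libraries, with exact 95% intervals for shares above 0 and the level in CPM printed over each point. Ccl3, Ccl4 and Ccl5 shares are larger in CD137 plus than minus in both tissues, Xcl1 separates tumour from spleen, and Ccl1 is listed at 0 in the spleen.

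The first comparison the design implies is that of CD137 minus with CD137 plus cells in the same tumours. Of the 5 members, 4 were lower in tumour CD137 minus by at least 0.5 on the log2 scale (pseudocount 1 CPM) and none was higher. Among all 5353 genes measured in this comparison, 5.44% were lower by that much and 1.7% were higher. A gene counted as measured with at least 20 CPM and a value in 5% of cells in 1 of the groups and a value in both. The log2 ratio was -1.39 for Ccl3, -1.22 for Ccl4, -0.69 for Ccl5, -0.50 for Ccl1 and -0.39 for Xcl1, against a median of -0.13 over all measured genes. Counted from the top, Ccl3 ranked 5346 and Ccl4 5340. No test is possible with 1 library per group, and fewer cells that transcribe a gene and less transcript per cell both enter these ratios.

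Ccl1 sat at the size limit and rested on few cells. A single tumour CD137 minus cell held 151 of the 405 Ccl1 counts of that library, 37.3%, whereas the richest tumour CD137 plus cell held 9.70% of 979. Without the richest cell of each library the Ccl1 ratio was -1.01, and relative to the median of all genes it was -0.37. That cell also had a count of Lyz2 and of C1qa, macrophage genes, and among cells with Cd8a or Cd8b1 and without such markers the ratio was -1.10. The ratios of Ccl3, Ccl4 and Ccl5 stayed between -1.54 and -0.56 over the same settings, all past the limit. Marker sums of 4 other cell types were also lower in tumour CD137 minus than in the plus library, at 179 against 276 CPM for macrophages and monocytes (led by Cst3, with 6 of 6 markers in the table above 0 in both). They were 359 against 533 for B cells (led by Cd74), 150 against 201 for NK cells (led by Klre1) and 138 against 210 for dendritic cells (led by Irf8). Those of 3 others were slightly higher, at 53.0 against 48.7 CPM for melanoma, 31.3 against 28.4 for CD4 T cells and 19.5 against 16.5 for fibroblasts and endothelium. Of the defining markers, Cd79a, Ms4a1, Klra8 and Flt3 were at 0 in tumour CD137 minus and Ms4a1 in tumour CD137 plus. The restriction described above kept cells with Cd8a or Cd8b1 and no value of Cd79a, Lyz2, C1qa, Mlana or Pmel. Among those cells the ratios of Ccl3 (-1.36) and Ccl4 (-1.23) were about as large. No NK or dendritic cell marker entered the restriction, so the part of such cells in these ratios was not tested.

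The spleen gave the same direction for Ccl4 and Ccl5. Ccl4 was the lowest of 5183 measured genes in spleen CD137 minus against plus, with a log2 ratio of -2.68, and Ccl5 stood at -1.50. Together they make 2 members lower of 3 measured, beside 10.3% of all measured genes, with no member among the 1.41% that were higher. Xcl1 stood at 0.27. Ccl3 fell outside the measured genes because under 5% of cells had it, with 34 counts in spleen CD137 minus and 77 in spleen CD137 plus. The spleen CD137 plus library is the smallest, and a single cell held 23.2% of its Ccl4 counts; without the richest cell of each library the Ccl4 ratio was -2.50. B cell marker sums were 432 CPM in spleen CD137 minus and 347 in spleen CD137 plus, and NK cell sums were 54.5 and 92.4; their part in the result was not tested.

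Compared with the spleen of the same fraction, tumour cells carried more of each measured member except Ccl5 in the plus fraction. In CD137 plus the log2 ratios of tumour over spleen were 4.03 for Xcl1, 3.61 for Ccl3, 2.45 for Ccl4 and -0.05 for Ccl5, so that 3 of 4 measured members were higher, beside 24.2% of 5710 measured genes. Xcl1 ranked 18 from the top in that comparison. In CD137 minus they were 5.07 for Ccl3, 3.91 for Ccl4, 3.38 for Xcl1 and 0.75 for Ccl5, all 4 higher, beside 22% of 5412 genes. The 2 comparisons use different libraries on both sides. No ratio is given for Ccl1, which was listed at 0 in the spleen.

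**Figure D2:**
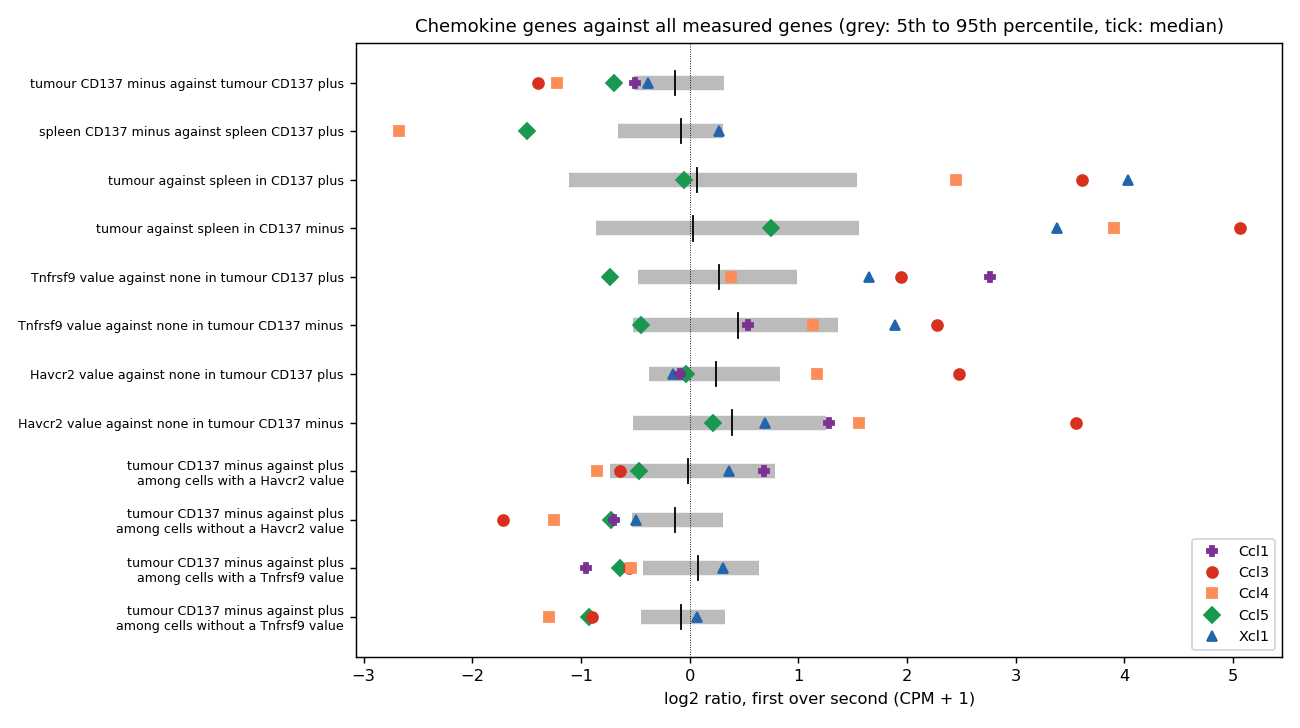
log2 ratio (horizontal axis) of each measured chemokine gene in 12 comparisons, each with the range from the 5th to the 95th percentile of all measured genes as a grey bar and their median as a tick. Ccl3 and Ccl4 lie left of the grey bar in tumour CD137 minus against plus, and Ccl3 lies to its right in all 4 splits of tumour cells by Tnfrsf9 or Havcr2.

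Tumour cells were next split by the activation receptor Tnfrsf9. In tumour CD137 plus, the 1252 cells with a Tnfrsf9 value had Ccl1 at 177 CPM against 25.2 in the 1514 cells without, Ccl3 at 651 against 168, Xcl1 at 1038 against 331 and Ccl4 at 838 against 643. Ccl5 ran the other way, at 5050 against 8396 CPM. The log2 ratios were 2.76 for Ccl1, 1.95 for Ccl3, 1.65 for Xcl1, 0.38 for Ccl4 and -0.73 for Ccl5. Thus 3 members were higher, beside 26.5% of 5659 measured genes, and 1 was lower, beside 4.82%. Ccl1 ranked 5 from the top of all measured genes. The share of cells with Ccl5 was nearly equal, 86.6% and 84.9%, and the difference lay in the mean per positive cell, 22.2 against 36.0 counts.

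Tnfrsf9-positive cells also had more genes detected, with medians of 1579.5 and 1181, and the median log2 ratio of all measured genes was 0.27. In cells of the middle 50% of genes per cell the ratios were 2.11 for Ccl1, 2.15 for Ccl3, 2.04 for Xcl1, 0.68 for Ccl4 and -0.52 for Ccl5. In tumour CD137 minus, where Tnfrsf9 is the targeted gene, 200 cells still had a value and 1062 had none. Their log2 ratios were 2.28 for Ccl3, 1.89 for Xcl1, 1.14 for Ccl4 and 0.54 for Ccl1, and -0.45 for Ccl5, so 4 members were higher beside 45% of measured genes and none was lower beside 5.35%. Relative to the median ratio of 0.44 in this split, Ccl1 stood at only 0.09 and Ccl5 at -0.89. With 2 or more Tnfrsf9 counts in place of any, the Ccl1 ratio turned to -0.51, and among cells of the middle 50% of genes per cell that of Ccl5 turned to 0.14.

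The split by Havcr2 picked out Ccl3. In tumour CD137 plus, Ccl3 stood at 1360 CPM in 356 cells with a Havcr2 value and 242 in 2410 cells without, and in tumour CD137 minus at 870 in 117 cells with and 73.2 in 1145 cells without. These log2 ratios, 2.48 and 3.55, ranked 1 among 5791 and 5846 measured genes respectively. Ccl3 was present in 49.2% (43.8 to 54.5) of Havcr2-positive and 20.3% (18.7 to 22.0) of Havcr2-negative plus cells, and in 41.0% (32.0 to 50.5) and 11.3% (9.49 to 13.2) of minus cells. Ccl4 was also higher, at 1416 against 628 CPM in plus (log2 ratio 1.17) and 782 against 264 in minus (1.56).

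The levels of the remaining members lay within the limit in the Havcr2 split of tumour CD137 plus, where Ccl5 stood at -0.04, Ccl1 at -0.09 and Xcl1 at -0.16. By share of cells, Ccl1 was in 12.6% (9.37 to 16.5) of Havcr2-positive and 6.72% (5.75 to 7.80) of negative cells and Ccl5 in 94.9% (lower bound 92.1) and 84.3% (82.8 to 85.7), without overlap of the intervals, whereas Xcl1 was in 28.9% (24.3 to 33.9) and 35.5% (33.6 to 37.4). Hence 2 members were higher in plus, beside 22.3% of measured genes, and none was lower, beside 3.49%. In minus 4 were higher, beside 40%, and none was lower, beside 5.27%, with Ccl1 (1.29) and Xcl1 (0.70) past the limit there, while Ccl5 stood at 0.22, or -0.17 relative to the median of all genes. Those Ccl1 and Xcl1 values rested on few cells. Ccl1 had a value in 8 Havcr2-positive minus cells and its ratio turned to -0.47 without cells that had Mki67 or Top2a, genes of dividing cells. Xcl1 stood at 0.02 without the richest cell of each group. In plus cells of the middle 50% of genes per cell, Ccl1 reached 0.83 and Xcl1 0.79, whereas Ccl3 stood at 2.75. Havcr2-positive cells had more genes detected, with medians of 1720 against 1266.5 in plus and 1885 against 1411 in minus.

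Dividing cells by both receptors separated the members further. In tumour CD137 plus, Ccl3 stood at 1513 CPM in 271 cells with both, 838 in 85 cells with Havcr2 only, 403 in 981 cells with Tnfrsf9 only and 128 in 1429 cells with neither. Cells with both made up 9.80% of the library and held 39.9% of its Ccl3 counts. In tumour CD137 minus the same order held, with 1228, 571, 167 and 58.4 CPM in 52, 65, 148 and 997 cells. The cells with both (4.12%) held 35.6% of the Ccl3 counts, and a single cell among them held 13.8%. Ccl4 in plus was highest with Havcr2 only, at 1725 CPM, then 1326 with both, 697 with Tnfrsf9 only and 578 with neither. In minus it was highest with both, at 1109 CPM, and 510, 389 and 245 followed in Havcr2 only, Tnfrsf9 only and neither. The minus cells with both held 15.2% of the Ccl4 counts of that library, and the same single cell held 6.13%.

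By level, Xcl1 and Ccl1 peaked in plus cells with Tnfrsf9 but not Havcr2. Xcl1 stood at 1149 CPM there, against 651 with both, 419 with Havcr2 only and 325 with neither, and its share was 46.4% (43.2 to 49.6) with Tnfrsf9 only and 28.8% (23.5 to 34.6) with both. Xcl1 in minus gave the same order, at 1377, 1032, 551 and 333 CPM. The place of the minus cells with both rested largely on 1 cell. These cells held 8.82% of the Xcl1 counts of that library, and 1 of them alone held 5.93%. Ccl1 in plus stood at 199 CPM with Tnfrsf9 only, and these cells, 35.5% of the library, held 75.2% of its counts. It stood at 97.8 CPM with both, 64.0 with Havcr2 only and 22.9 with neither. The share of plus cells with Ccl1 gave no such peak, at 12.8% (10.8 to 15.1) with Tnfrsf9 only and 13.7% (9.80 to 18.3) with both. The mean in positive cells was 5.84 counts with Tnfrsf9 only and 2.81 with both. The minus order of Ccl1 differed, led by Havcr2 only at 224 CPM with 6 positive cells. Ccl5 was lowest with Tnfrsf9 only in both libraries, at 4809 CPM in plus and 2995 in minus, and highest with Havcr2 only, at 9445 and 5592.

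**Figure D3:**
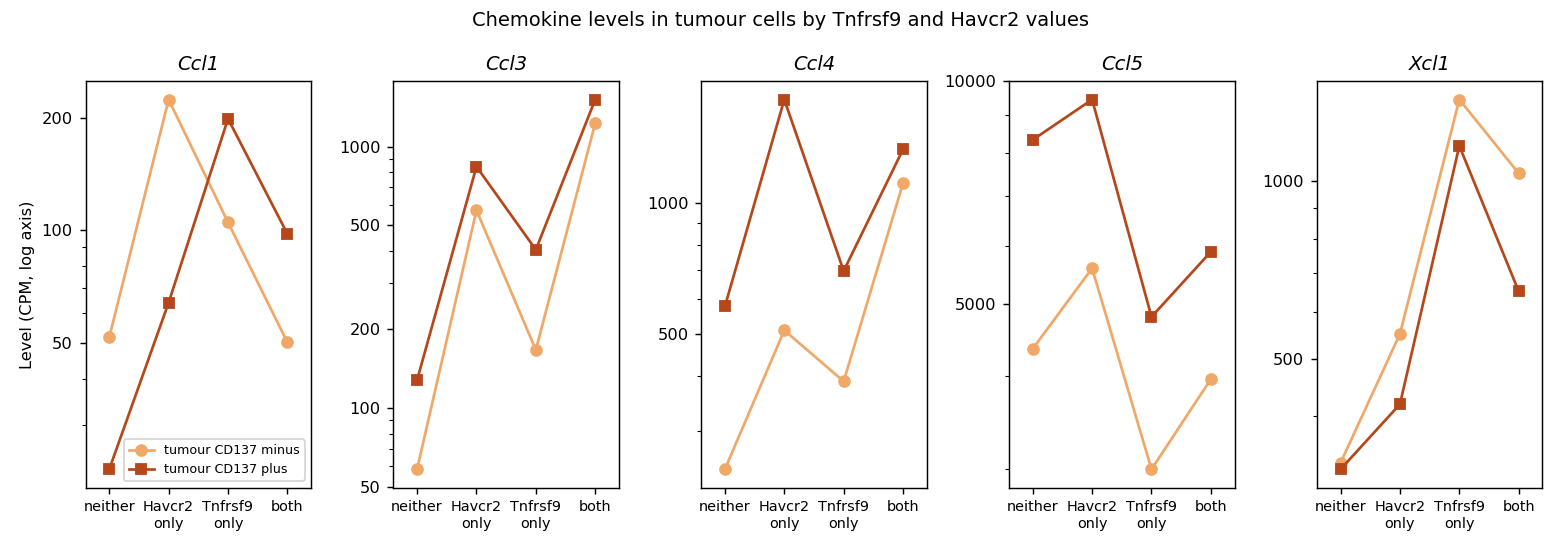
Level of each chemokine gene (CPM, log axis, scaled for each panel) in tumour cells with neither receptor, Havcr2 only, Tnfrsf9 only or both, for CD137 minus (circles) and CD137 plus (squares). Ccl3 peaks in cells with both, Xcl1 in cells with Tnfrsf9 only, and Ccl5 has its lowest level in cells with Tnfrsf9 only.

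Levels were also taken by the number of counts of each receptor. With 0, 1, 2 and 3 or more Havcr2 counts, Ccl3 in tumour CD137 plus stood at 242, 1006, 1610 and 4438 CPM. These bins held 2410, 260, 70 and 26 cells, and the last includes the library's richest Ccl3 cell, with 180 counts. Shares of cells with Ccl3 were 20.3%, 47.3%, 51.4% and 61.5%. Ccl4 went with Ccl3, at 628, 1267, 1645 and 2390 CPM. Xcl1 gave no such steps, at 667, 550, 786 and 613 CPM. With 0, 1, 2 and 3 or more Tnfrsf9 counts in that library, Ccl3 stood at 168, 406, 543 and 807 CPM and Ccl5 at 8396, 6088, 5236 and 4523. Xcl1 had most of its step at the first count, with 331, 936, 969 and 1113 CPM. By level so had Ccl1, with 25.2, 144, 187 and 186 CPM, but the bin of 2 holds the library's richest Ccl1 cell, with 95 counts. Shares of cells with Ccl1 did not level off after the first count, at 2.91%, 10.99%, 7.98% and 16.39%. Ccl4 stood at 643, 768, 1094 and 745 CPM, but the bin of 2 holds the library's richest Ccl4 cell, with 423 counts. Shares of cells with Ccl4 gave no such peak, at 32.7%, 35.2%, 35.9% and 36.4%. In tumour CD137 minus the steps were less regular. With 0, 1 and 2 Havcr2 counts Ccl3 stood at 73.2, 702 and 417 CPM and Ccl4 at 264, 555 and 379, and the bin of 3 or more held 12 cells. Over the Tnfrsf9 bins of that library Ccl3 stood at 90.2, 305, 308 and 1163 CPM and Xcl1 at 347, 967, 1228 and 2490. The last of these bins held only 33 cells. Among them were the library's richest cell for Ccl3, with 124 counts, and that for Xcl1, with 180. Shares of cells did not rise past the first count, at 10.5%, 35.8%, 27.9% and 33.3% for Ccl3. For Xcl1 they were 33.8%, 60.4%, 54.1% and 60.6%. Ccl1, with 62.4, 131, 19.9 and 88.0 CPM, and Ccl5, with 4432, 4191, 1930 and 2534, gave no even steps.

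Because the plus library has more Tnfrsf9-positive cells, the minus against plus ratio was also taken inside each class. Among cells with a Havcr2 value, the log2 ratio of minus over plus was -0.64 for Ccl3, -0.86 for Ccl4, -0.46 for Ccl5, 0.36 for Xcl1 and 0.68 for Ccl1. That made 2 lower, beside 10.9% of 6119 genes, and 1 higher, beside 13.2%. The Ccl1 value there turned to -0.46 without the richest cell of each group and to -1.21 without dividing cells, and that of Xcl1 turned to -0.26 without the richest cell. Among cells without Havcr2 the ratios were -1.71 for Ccl3, -1.24 for Ccl4, -0.72 for Ccl5, -0.70 for Ccl1 and -0.49 for Xcl1, 4 lower beside 5.9% and none higher beside 1.64%. Ccl3 and Ccl4 were thus lower in minus in both classes. The difference between the classes was not tested.

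Xcl1 behaved differently when Tnfrsf9 classes were held apart, a choice made after seeing the data. Among cells with a Tnfrsf9 value it stood at 1287 CPM in minus and 1038 in plus (log2 ratio 0.31), and among cells without at 347 and 331 (0.07), although over all cells minus was the lower. By level, Ccl3 (-0.56 and -0.89), Ccl4 (-0.54 and -1.30) and Ccl5 (-0.64 and -0.92) were lower in minus in both classes. With Ccl1 (-0.95), these ratios give 4 lower members among Tnfrsf9-positive cells, beside 3.4% of measured genes. Among negative cells 3 of 4 measured members were lower, beside 3.42%. Shares among Tnfrsf9-positive cells were 33.0% in minus and 33.5% in plus for Ccl3, 38.5% and 36.0% for Ccl4, and 76.0% and 86.6% for Ccl5. The richest Ccl4 cell of the plus library, with 423 counts, is a Tnfrsf9-positive cell. Alternative settings were not run for the Tnfrsf9 classes. No measured member was higher in either class, beside 9.83% and 1.68%. Ccl1 was not measured among negative cells, since under 5% of them had it, and stood at 62.4 CPM in minus and 25.2 in plus. Weighting the 4 classes of the minus library by their shares in the plus library moved the overall ratio of Xcl1 from -0.39 to 0.27 and that of Ccl3 from -1.39 to -0.76. With the same weights Ccl4 stood at -0.90, Ccl5 at -0.83 and Ccl1 at -0.32. Since the sorted groups differ in Tnfrsf9 by design, cells with a value in the minus library are not a matched set of those in plus.

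Cells differed in how many members they carried. In tumour CD137 plus 5.86% of cells had none of the 5, 36.3% had 1, 32.6% had 2, 17.6% had 3, 6.18% had 4 and 38 cells had all 5. Among cells with all 5, 81.6% had a Tnfrsf9 value and 34.2% a Havcr2 value, against 15.4% and 1.85% of cells with none; cells with all 5 also had more genes detected, with medians of 1580 and 1340. In tumour CD137 minus 12.2% had none, 40.2% had 1 and 11 cells had all 5. In the spleen, 50.1% of minus and 29.8% of plus cells had none. No spleen cell could have all 5, since Ccl1 was listed at 0 there.

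Ccl3 and Ccl4, the adjacent pair, had the highest Pearson correlation of log values across cells of any pair, 0.50 in both tumour libraries. In tumour CD137 plus 60.5% (56.6 to 64.2) of cells with Ccl3 also had Ccl4, against 25.9% of cells without Ccl3, and in minus the shares were 59.9% and 19.2%. Pairs with Ccl5 were held by more cells, since most tumour cells had Ccl5. Ccl1 and Xcl1, whose genes lie on different chromosomes, had the next highest correlation in both. Of cells with Ccl1, 70.0% (63.3 to 76.2) had Xcl1 in plus and 67.7% (55.0 to 78.8) in minus, against 31.8% and 36.1% of cells without, with correlations of 0.38 and 0.35. Ccl5 was less frequent with these: 73.9% of Ccl1-positive plus cells had Ccl5 against 86.6% of the others, and 32.5% of Ccl5-positive plus cells had Xcl1 against 47.2% of the others. The correlations of Ccl5 with Xcl1 were -0.22 in plus and -0.08 in minus. All cells of a library share its depth and preparation, so these correlations describe and carry no p-value.

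**Figure D4:**
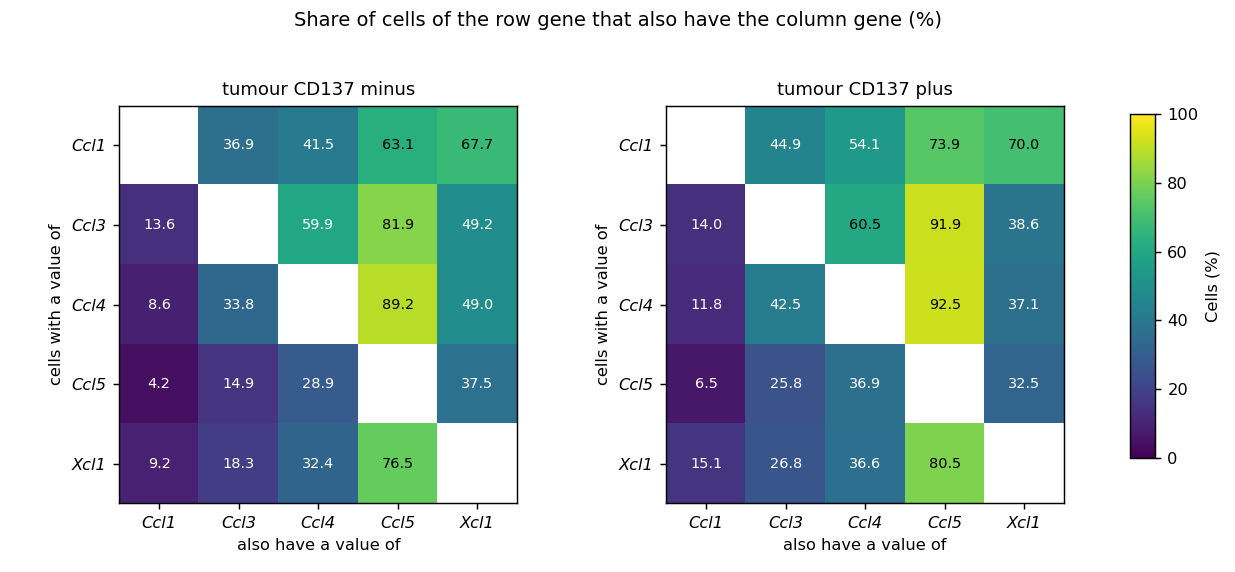
Share of tumour cells with a value of the row gene that also have the column gene (%), in CD137 minus (left) and CD137 plus (right). About 60% of Ccl3-positive cells have Ccl4 and about 70% of Ccl1-positive cells have Xcl1 in both libraries; the Ccl5 column is high throughout because most cells have Ccl5.

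Transcripts of some members were held by a small number of cells. The richest 28 cells of tumour CD137 plus, 1% of the library, held 62.5% of its Ccl1 counts, 38.8% of Ccl3, 29.7% of Ccl4, 27.8% of Xcl1 and 9.96% of Ccl5. In tumour CD137 minus the richest 13 cells held 81.7%, 46.8%, 32.2%, 35.0% and 13.8% in the same order. Ccl1 was thus the most concentrated and Ccl5 the most evenly spread in both tumour libraries. The median positive cell had 1 count of Ccl1 in either library, whereas the richest held 151 in minus and 95 in plus.

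Other single-gene splits placed the members along known CD8 states. Cells with Tnfrsf4, which encodes the costimulatory receptor OX40, had Ccl1 at 302 CPM against 28.6 in tumour CD137 plus and 278 against 14.1 in minus, and Xcl1 at 1387 against 423 and 1338 against 293. Ccl5 was lower in these cells, with log2 ratios of -1.21 in plus and -1.14 in minus, and Ccl4 was nearly level, at 0.14 and 0.16. Cells with Gzmk, a granzyme of effector memory cells, showed the reverse, with Ccl5 ratios of 1.65 and 1.67, Xcl1 at 304 against 765 CPM in plus and 273 against 545 in minus, and Ccl1 ratios of -3.53 and -3.92. Cells with Gzmb, the main cytotoxic granzyme, had more Ccl5 (1.67 in plus and 2.10 in minus) and Ccl4 (1.55 and 1.06). With Klrg1, a receptor of terminal effector cells, Ccl5 reached 29006 CPM in 81 plus cells against 6191 in the rest.

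Genes of naive and stem-like cells went with lower levels of most members. Tcf7, which encodes a transcription factor of naive and progenitor cells, gave negative ratios for all 5 in both tumour libraries, with Ccl3 at -2.35 in plus and -1.77 in minus. Slamf6, a surface marker of progenitor cells, parted Xcl1 from the rest: the Xcl1 ratio was 0.77 in plus and 0.29 in minus, whereas Ccl3 stood at -1.51 and -1.03 and Ccl4 at -0.94 in both. Cells with Pdcd1, which encodes PD-1, had more Ccl3 (1.68 in plus and 2.90 in minus) and Xcl1 (0.99 and 1.82). With Mki67, a gene of dividing cells, 4 members had opposite signs in the libraries: Ccl4 stood at -1.05, Ccl3 at -0.44, Ccl1 at -1.42 and Xcl1 at -0.75 in plus, but at 0.03, 1.47, 2.78 and 1.09 with Mki67 in minus, where 62 cells had it.

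**Figure D5:**
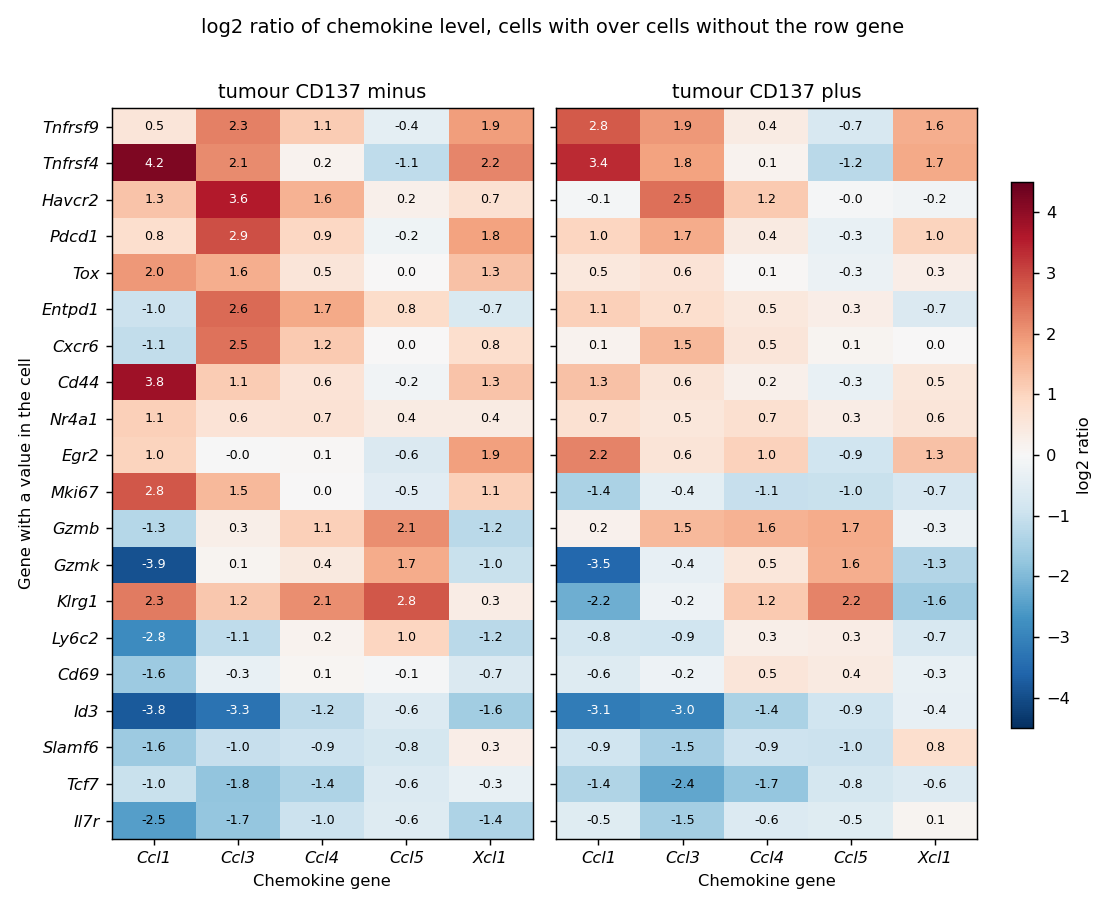
log2 ratio of the level of each chemokine gene (columns) between tumour cells with and without a value of each of a set of single genes (rows), for CD137 minus (left) and plus (right), on a colour scale centred at 0. Tnfrsf4 goes with high Ccl1 and Xcl1 and low Ccl5, Gzmk with the reverse, and Tcf7 with lower levels of all 5.

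In the spleen, Ccl5 followed the memory marker Ly6c2, at 3978 CPM in positive against 351 in negative cells of the minus library and 8689 against 1806 in the plus library. Spleen cells with Gzmk were few, 29 in minus and 37 in plus, but had Ccl5 at 33013 and 40898 CPM. In the plus library those 37 cells had Ccl4 at 1202 CPM against 49.4 in the rest and Ccl3 at 369 against 4.81. Xcl1 in the spleen minus library was higher with Cd44, a marker of activated and memory cells, at 167 CPM against 35.9. Ccl1 was listed at 0 in every spleen cell.

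The genes most like each member across cells were ranked by mean Pearson correlation of log values over the 2 tumour libraries, among 5705 genes that 5% or more of the cells of each library carried. For Ccl3 they were Ccl4 (0.50), Ifng (0.38), which encodes interferon gamma, the inhibitory receptor gene Lag3 (0.33), the perforin gene Prf1 (0.32), Havcr2 (0.32), Nkg7, S100a4 and Cst7. For Ccl4 they were Ccl3, Ifng (0.36), Ccl5 (0.29), Nkg7 (0.28), Cish, Srgn, S100a6 and Lgals1. Ccl5 was most like Nkg7 (0.44), a granule protein gene of cytotoxic cells, followed by Gzmb (0.37), Gzmk (0.37), S100a6, Gzma (0.34), Hcst, Ctla2a and Laptm5.

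Ccl1 and Xcl1 were each among the closest genes of the other, and both lists held Crtam, Nrgn and Irf8. Ccl1 was most like Crtam (0.39), an adhesion receptor gene of activated CD8 T cells, then Xcl1 (0.36), Dusp14 (0.33), Penk (0.32), which encodes proenkephalin, Nrgn, Capg, Pdcd1lg2 and Irf8. Xcl1 was most like Cd160 (0.38), Ccl1, Crtam (0.36), Nrgn (0.33), Tnfrsf4 (0.29), Tnfsf11 (0.29), Irf8 and Bcl2a1b. With rank correlation in place of Pearson's, between 5 and 8 of the 8 genes of each member were named again. No gene named for Ccl5 was named for Ccl1 or Xcl1. In sparse values correlations of this size describe tendencies and not tight links.

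Lists of related genes give the setting. Ccr8, the receptor of CCL1, stood at a log2 ratio of 0.04 in tumour CD137 minus against plus. It stood higher with Tnfrsf9, with a log2 ratio of 2.17 in plus, and with Havcr2, at 1.18 in plus and 1.65 in minus. Of 28 other chemokines, 14 were in the table and 2 were measured in tumour CD137 minus against plus, Cxcl10 (-0.32) and Cklf (-0.28).

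Among 21 other secreted products of activated CD8 T cells, 15 were measured in tumour CD137 minus against plus, with 5 lower and none higher, beside 5.44% and 1.7% of all measured genes. The 5 were Gzmb (-1.06), Ifng (-0.89), Gzmk (-0.86), Tnfsf11 (-0.71), which encodes RANKL, and Prf1 (-0.64). The median of the 15 was -0.35, beside -0.13 over all measured genes, and Tnf stood at -0.14. Of 26 early T cell receptor response genes 23 were measured in the same comparison and 4 were lower, Irf8 (-0.73), Crem (-0.58), Nr4a2 (-0.55) and Bhlhe40 (-0.52), with a median of -0.04. In tumour over spleen, 22 of 23 measured genes of that list were higher in each fraction and Myc was lower, beside 24.2% (plus) and 22% (minus) of all measured genes higher and 17.5% and 14.5% lower. Of 16 genes of protein processing and release, 16 were measured and only Stx11 (-0.71), a fusion protein of cytotoxic granules, was lower in tumour CD137 minus.

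With Tnfrsf9 in tumour CD137 plus, where 26.5% of all measured genes were higher and 4.82% lower, 9 of 17 measured secreted products were higher, among them Spp1 (3.30), Penk (2.38), Csf1 (2.20) and Areg (1.98), and 4 were lower, among them Gzmk (-0.97). The early response list was divided there, with 8 of 24 higher, such as Crem (1.35) and Nr4a2 (1.05), and 8 lower, such as Cd69 (-1.40), Jun (-1.38) and Fos (-1.32). With Havcr2 in plus, where 22.3% of all measured genes were higher and 3.49% lower, 8 of 17 secreted products were higher, among them Spp1 (1.99), Prf1 (1.93) and Csf1 (1.63), and 4 were lower, while 5 of 24 early response genes were higher and 9 lower.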

How the data were processed

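Single-cell 5′ RNA libraries were made with the 10x kit, per the labels' protocols. Cell Ranger 3.0.2, Seurat 3.0 and the mm10 genome are listed in the submitters' processing notes. Each value in the table deposited by the authors is a natural log, namely that of a whole number increased by 1, and per-cell totals lie in a narrow range, as after a depth correction; parameters, cell filters and doublet removal were not stated. Those whole numbers, called corrected counts, were recovered, summed over the cells of a group and scaled to CPM, so no counting interval is given for a CPM. Ratios are log2 with a pseudocount of 1 CPM. No doublet caller was run. With 1 library per group no test was made and no p-value is given. The 5 members and the 5 gene lists were chosen with earlier results of these data known. Named genes were the members, the 8 genes most correlated with each over the tumour libraries, and list genes past the size limit in the tumour comparison or furthest otherwise; other genes in the text were named after their values were seen. Similar transcripts were sought with minimap2 2.31-r1302 in GENCODE transcripts. Calculations used numpy 2.4.6 and pandas 2.3.3 in Python 3.11.15, exact intervals scipy 1.17.1 and figures matplotlib 3.10.9, and the comparison code was tested on simulated data. Results that need certain withheld genes are not reported here.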

Additional observations from a re-analysis of the deposited data

Results flagged for a closer look

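For 5 results the values of both groups under the same contrast had opposite signs, and these differences were not tested, since each group is 1 library. The log2 ratio of Xcl1 in CD137 minus over CD137 plus was 0.27 in the spleen and -0.39 in the tumour, neither past the size limit of 0.5. That of Ccl5 in tumour over spleen was -0.05 in CD137 plus and 0.75 in CD137 minus. In the split of tumour cells by Havcr2, Ccl1 stood at -0.09 in CD137 plus and 1.29 in CD137 minus, Ccl5 at -0.04 and 0.22, and Xcl1 at -0.16 and 0.70.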

How the results depend on the processing

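No paired analysis was possible because each group is 1 library, and for the same reason no replicate could be left out. Of 408 log2 ratios recomputed under the alternatives, 333 stayed within a tolerance around their value and 71 moved further. The other 4 were past the limit as reported and changed sign. The tolerance was taken from the exact intervals of the shares of cells with a value in both groups. It is not an error of the ratio itself, and it is wide where few cells have the gene. Lifting the filter on low values cannot change a ratio, and the ratios under that alternative are counted among the 333. Sign changes of ratios that lay within the limit were not counted as such. Xcl1 in the Havcr2 split of tumour CD137 plus, for example, stood at -0.16 as reported and reached 0.79. Of 196 counts of members past the limit, 183 stayed within 1.5 times. Of 46 other values (shares of cells and lists of like genes) 36 moved. Nearly all that moved were shares, which thinning or asking for 2 or more counts lowers by construction. The 4 sign changes of ratios past the limit were all of Ccl1. With 2 or more Tnfrsf9 counts its ratio in the Tnfrsf9 split of tumour CD137 minus was -0.51 (0.54 as reported). Without cells that had Mki67 or Top2a it was -0.47 in the Havcr2 split of tumour CD137 minus (1.29 as reported), and among Havcr2-positive cells, minus over plus, it was -1.21 there and -0.46 without the richest cell of each group (0.68 as reported). The cause was not tested. With a size limit of 1 in place of 0.5, the members lower in tumour CD137 minus against plus were 2 in place of 4, among cells without Havcr2 also 2 in place of 4, among cells with Havcr2 0 in place of 2 with 0 higher in place of 1, and in the Tnfrsf9 split of plus 0 lower in place of 1. In the Tnfrsf9 split of tumour CD137 minus the members lower were 0 as reported, 1 relative to the median of all genes, 1 without the 50 most abundant genes in the total, 1 without the richest cell, an alternative added after seeing the data, and 2 with 2 or more Tnfrsf9 counts. The Havcr2 split of plus gave 4 higher in place of 2 in cells of the middle 50% of genes per cell. Among Havcr2-positive cells, minus over plus, the members higher were 2 in Cd8-positive cells without other markers, 0 without dividing cells and 0 without the richest cell, in place of 1. Depth limits Ccl1, with 65 positive cells in tumour CD137 minus, and Ccl3 in the spleen, with 21 and 19.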
